A study of Mus musculus with 12 samples.

Results

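The gene Tgm2, which encodes transglutaminase 2 (TG2), was followed as 1 of 50433 genes in the count table of renal tubular epithelial cells (TECs) and 1 of 50434 genes in that of blood neutrophils (PMN) of the same series. It was read as the row Tgm2 of each table, and no measured value enters this rule. All mice were wildtype and underwent ischemia-reperfusion injury (IRI), a temporary clamping of the renal vessels that causes acute kidney injury, and cells were isolated 24 hours later. Each cell type was sampled in 3 libraries from glutamine-treated and 3 from vehicle-treated mice, 12 libraries in all. Per the study's methods the animals were male C57BL/6J mice of 8 to 12 weeks, the vehicle was saline, and glutamine and saline were injected intravenously. The study describes dosing at 15 minutes after reperfusion for the TEC experiment and a later time for some other experiments, and no time of dosing is given for the PMN. No library of uninjured mice was analysed here, so the comparisons are glutamine against vehicle after injury and hold no effect of the injury itself. The labels do not say that the libraries of a group came from separate animals, and p-values then measure the spread between these libraries.

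TG2 is a calcium-dependent enzyme that joins the side chain of a protein-bound glutamine to a lysine or to a small amine such as a polyamine, and so crosslinks proteins. When bound to GTP it takes a closed form that does not crosslink and works as a G protein, and outside the cell it also links fibronectin to integrins. In the kidney it is known from tubular cells, endothelium and scarring tissue, and its transcription is known to respond to retinoic acid, TGF-beta, NF-kB and hypoxia. The study followed TG2 together with HSP70 and, beside them, the kinase ASK1, both as inputs to the kinase JNK, and the RNA tables show whether the Tgm2 transcript moved with glutamine in either cell type.

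In the GENCODE M21 annotation of GRCm38, the assembly that is also called mm10, Tgm2 lies on the minus strand at chr2:158116402-158146436 (ENSMUSG00000037820.15). It has 4 annotated transcripts, and the main one has 13 exons, 3596 bases and 686 codons. The catalytic cysteine that defines the enzymes of the family is encoded by codon 277 of Tgm2. The coding stretches of 57 bases around this codon are shown for Tgm2, for the family member most like it here (Tgm5), for the next most abundant member in TECs (Tgm1) and for the other abundant member in PMN (F13a1), because they show how far apart the genes are where the enzymes are most alike. They run 5′ to 3′ in the sense of the gene, were read from the GENCODE M21 transcripts, and have the cysteine codon in capitals.

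Tgm2: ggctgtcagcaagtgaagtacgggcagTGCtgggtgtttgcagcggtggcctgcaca
Tgm5: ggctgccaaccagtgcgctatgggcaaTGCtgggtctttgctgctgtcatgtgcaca
Tgm1: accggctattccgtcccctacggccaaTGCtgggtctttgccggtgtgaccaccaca
F13a1: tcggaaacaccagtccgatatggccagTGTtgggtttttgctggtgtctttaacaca

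In this stretch Tgm5 had 42 bases, Tgm1 35 bases and F13a1 30 bases of the 57 in common with Tgm2 at the same position. Across the whole coding sequences, the longest run of bases that any of the other 9 listed genes shared with Tgm2 was between 11 and 17 bases. Reads in this study were 50 bases long, and none of the 4601 words of that length in the exons of Tgm2 occurred on the same strand in the transcripts of another gene. The opposite strand holds 2 overlapping genes, Rprd1b and the noncoding Gm20412, which share 18.7% of these words with Tgm2. The sources used here do not state whether the libraries keep strand, so reads from that part cannot be told apart by strand. Adding the counts of Gm20412 to Tgm2, an alternative chosen after seeing the data, left the log2 fold change of Tgm2 at 0.88 in PMN. In TECs it stayed at -0.27 with no digit of the fit changed, so the step tested nothing there. The counts of Rprd1b were not added.

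In TECs, Tgm2 was an abundant transcript in every library, and its level was lower in each glutamine library than in each vehicle library, by a margin that did not pass the test over all genes. The values are CPM, the counts of a gene relative to the total of its library, scaled by edgeR's TMM factors, which correct for differences in the composition of the libraries. Vehicle replicates 3, 4 and 5 had 219.5, 232 and 218 CPM, from 2225, 2585 and 2136 counts. Glutamine replicates 1, 2 and 3 had 173, 189 and 191 CPM, from 1440, 941 and 1745 counts. The highest glutamine library thus stayed below the lowest vehicle library, and the groups did not overlap. The vehicle group had a mean of 223 ± 7.5 CPM and the glutamine group one of 184 ± 9.97 CPM (SD, n = 3).

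The fitted log2 fold change, glutamine over vehicle, was -0.27 (standard error 0.18, 95% interval -0.67 to 0.12), or 0.827-fold with an interval of 0.629-fold to 1.09-fold. In edgeR's quasi-likelihood test its p-value was 0.156, with an adjusted p of 0.545 over the 14734 genes tested (Benjamini-Hochberg). An exact two-sided permutation test of the mean log2 CPM gave p = 0.1, the smallest p that 3 libraries against 3 allow. Groups that do not overlap, lower with glutamine, were found for 9.81% of all tested genes, so that this pattern was common in the table. Scaling by library totals alone moved the log2 fold change to -0.44 (adjusted p = 0.276 in the same edgeR test), and the median of all tested genes then lay at -0.16 against 0.01 with TMM. The direction was downward under all 15 alternatives, between -0.44 and -0.22, with adjusted p-values from 0.276 to 0.821. The addition of Gm20412 is counted among them, although it changed no value in TECs.

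**Figure D1:**
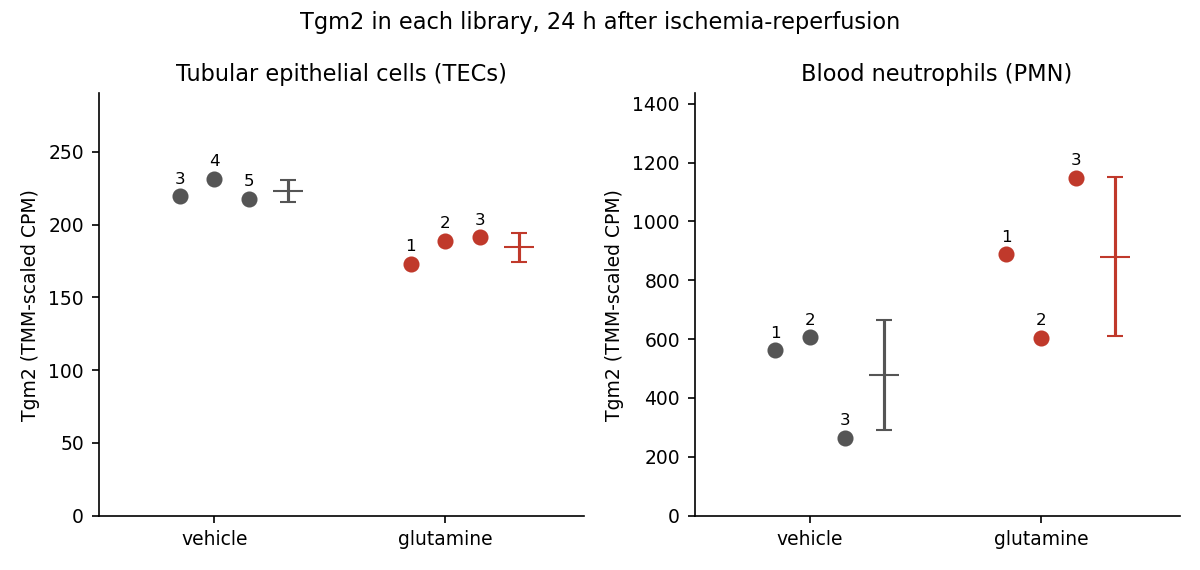
Tgm2 level in each library in TMM-scaled CPM, with the replicate number above each point and the mean ± SD (n = 3) beside each group; the panels have separate axes that start at 0. In TECs the glutamine libraries lie between 173 and 191 CPM and the vehicle libraries between 218 and 232 CPM, while in PMN the groups meet at about 606 CPM.

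The spread of Tgm2 among the TEC libraries was small. The pooled within-group SD of its log2 CPM was 0.0655, whereas the median over the 500 tested genes nearest to it in level (149 to 278 CPM) was 0.242, and 1.4% of those genes had a smaller spread. The coefficient of variation was 3.37% among the vehicle libraries and 5.41% among the glutamine libraries. edgeR's test draws the spread of each gene toward that of genes of like level, so that its standard error is larger than the spread of Tgm2 alone. Of the same 500 genes, 48.8% had a larger fold change in either direction and 24.6% a lower fold change than Tgm2.

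By percentile the transcript held nearly the same place in all 6 TEC libraries. Per kilobase of exon, it stood 943rd to 1070th in the vehicle libraries and 1156th to 1198th in the glutamine libraries, among 18981 to 21827 detected genes. Its percentile among them ran from 94.5 to 95.3 with vehicle and from 93.9 to 94.6 with glutamine. The ranks of the groups did not overlap, while their percentiles did. The libraries differed in makeup beside this result: predicted, Rik and sensory receptor genes together held 17.5% to 23.3% of the counts with vehicle and 26.3% to 30.8% with glutamine. With those genes left out of the totals and of the fit, the fold change was 0.859-fold (0.657-fold to 1.12-fold).

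**Figure D2:**
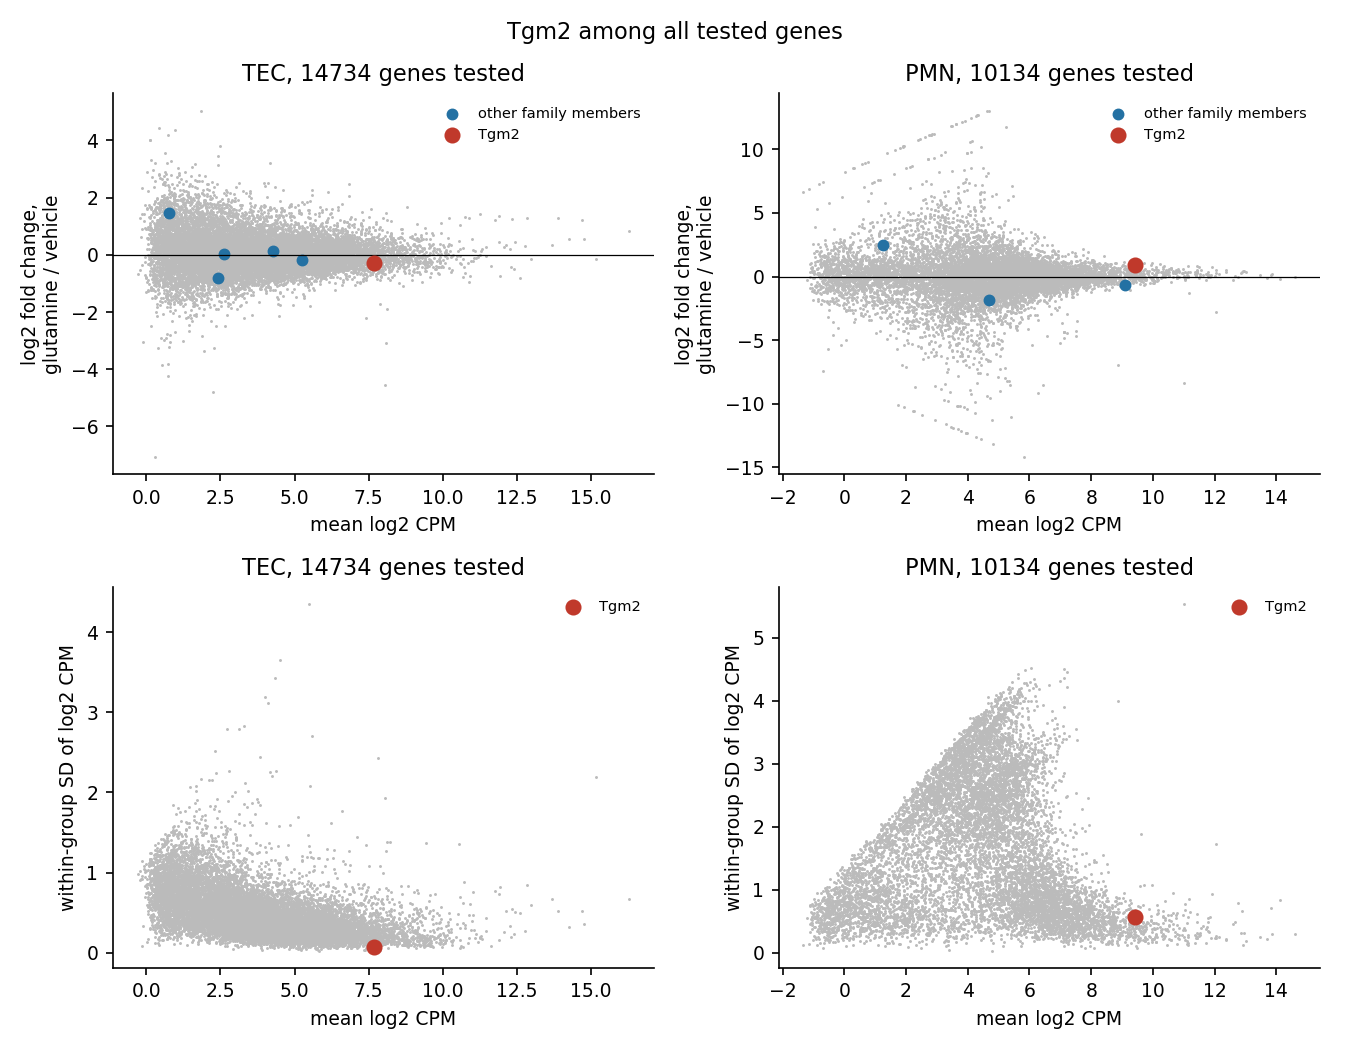
Each grey point is a tested gene, placed by its mean log2 CPM (x axis); the upper panels show the log2 fold change, glutamine over vehicle, and the lower panels the within-group SD of log2 CPM. Tgm2 (red) lies low in the lower left panel, with an SD of 0.0655 in TECs, and within the cloud of genes of like level in PMN; other tested family members are blue.

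In PMN, Tgm2 was also abundant, its mean was higher with glutamine, and the libraries of both groups were widely spread. Vehicle replicates 1, 2 and 3 had 563, 606.4 and 265 CPM, from 11224, 13320 and 5565 counts. Glutamine replicates 1, 2 and 3 had 889, 605.5 and 1148 CPM, from 16830, 12872 and 22903 counts. The lowest glutamine library and the highest vehicle library differed by less than 1 CPM, and vehicle replicate 3 stood lowest by far. Scaled by library totals alone the same 2 libraries had 621.5 and 608.8 CPM, and the groups then did not overlap. The vehicle group had a mean of 478 ± 186 CPM and the glutamine group one of 881 ± 271 CPM (SD, n = 3), with coefficients of variation of 38.9% and 30.8%.

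The fitted log2 fold change of Tgm2 in PMN was 0.88 (standard error 0.40, 95% interval -0.08 to 1.84), or 1.84-fold with an interval of 0.949-fold to 3.58-fold. In edgeR's quasi-likelihood test its p-value was 0.0658, and over the 10134 genes tested its adjusted p was 1. An exact two-sided permutation test gave p = 0.2. Without vehicle replicate 3 the log2 fold change was 0.58, or 1.5-fold, with an interval from 0.819-fold to 2.75-fold. It was upward under all 17 alternatives, from 0.58 to 1.08, and its adjusted p-value lay between 0.554 and 1 under them. With upper-quartile scaling the unadjusted p was 0.0369. The within-group SD of log2 CPM was 0.571, above that of 69.2% of the 500 genes nearest in level, whose median was 0.451. Of these 500 genes, 6% had a larger fold change in either direction and 4.6% a higher fold change than Tgm2.

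Per kilobase, Tgm2 stood 417th to 923rd in the vehicle PMN libraries and 209th to 399th in the glutamine PMN libraries, among 11819 to 13559 detected genes. Its percentile ran from 92.8 to 96.9 with vehicle and from 97.1 to 98.4 with glutamine, so that the ranks of the groups did not overlap. The TEC percentiles lay within the range of the PMN percentiles. The tables were scaled separately and the PMN library names share a prefix that the TEC names lack and whose meaning the labels do not give, so cell type and any technical difference between the tables cannot be told apart in levels set across them.

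The change with glutamine was also compared between the cell types. The difference in mean log2 CPM between glutamine and vehicle was 1.199 higher in PMN than in TECs. When the treatment labels were permuted within each cell type, over 400 splits, an exact two-sided permutation test gave p = 0.01, or 0.03 adjusted over the 3 comparisons made of Tgm2, where 0.005 is the smallest p possible. The glutamine libraries of the TECs lay below vehicle in 3 of 3 cases, and 2 of the 3 glutamine PMN libraries lay above every vehicle PMN library. This test takes as its null that the labels are exchangeable in both cell types, that is, no effect in either, so it is not a test of equal effects. It also takes the TEC and PMN libraries as independent, and the labels do not say whether they came from the same mice. Without PMN vehicle replicate 3 the difference was 0.82 with p = 0.05 in the same exact permutation test, and over all 12 cases with 1 library left out it lay between 0.82 and 1.45.

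**Figure D3:**
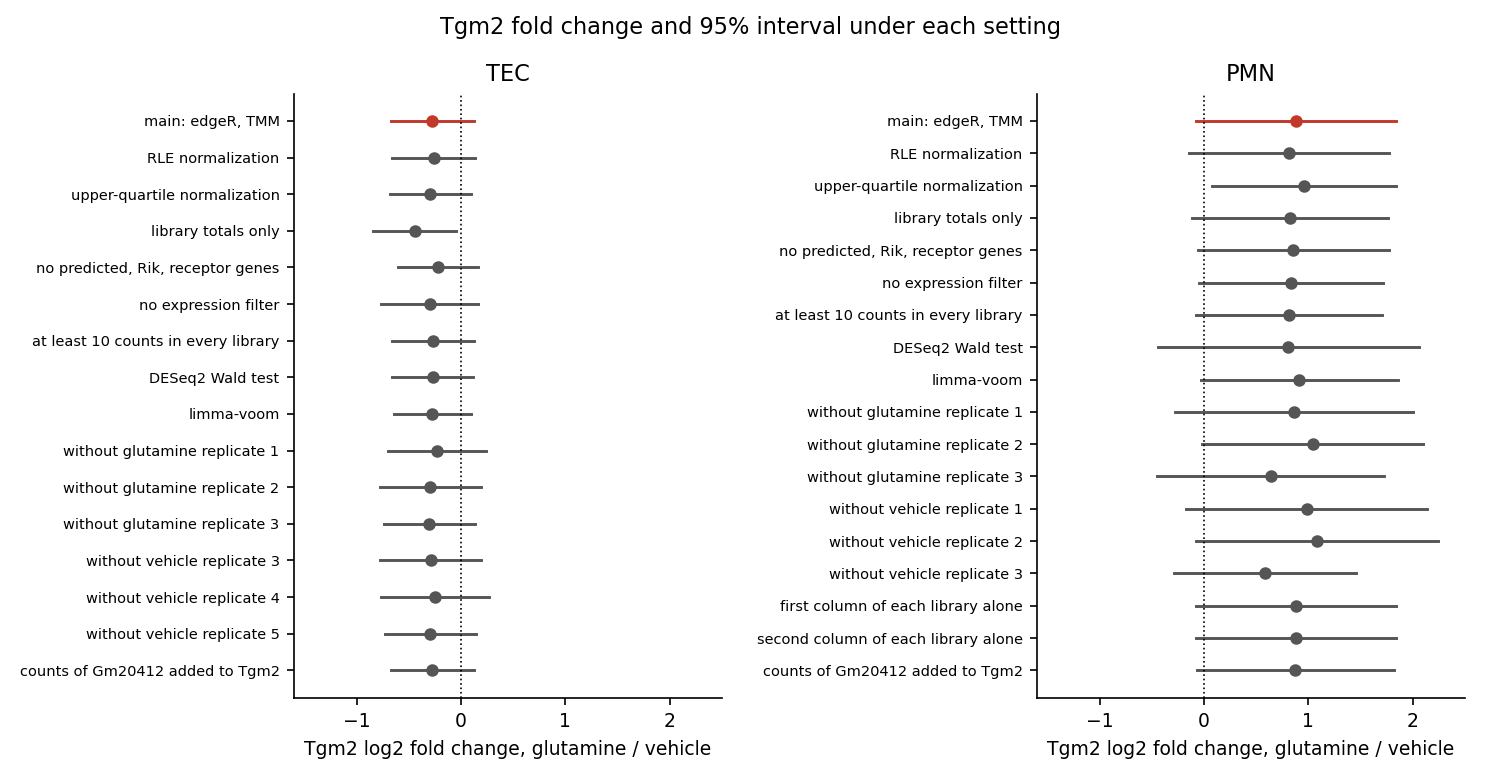
Log2 fold change of Tgm2, glutamine over vehicle, with its 95% interval under each setting (rows), in TECs and in PMN; red marks edgeR with TMM factors and the dotted line marks no difference. All points lie below 0 in TECs (-0.44 to -0.22) and above 0 in PMN (0.58 to 1.08), and 1 interval in each cell type leaves out 0.

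The transglutaminase family served as background. It includes the crosslinking enzymes Tgm1 to Tgm7 and F13a1 (the A subunit of clotting factor XIII), and 2 relatives by function or descent were listed with it: F13b, the carrier subunit of factor XIII, and Epb42, an erythrocyte membrane protein without enzyme activity. Levels of different genes are given per kilobase of exon (CPM per kb). In the vehicle TECs, Tgm2 had 48.4 ± 1.64 CPM per kb and was followed by Tgm1, known for crosslinking the outer layer of skin, with 12.7 ± 2.94 and by F13b with 7.27 ± 1.66 (SD, n = 3). The libraries of these neighbours did not overlap. Tgm4 and Epb42 came next at 1.3 ± 0.493 and 1.19 ± 0.922 CPM per kb, and their ranges overlapped. F13a1 had 0.122 ± 0.0427 CPM per kb, Tgm3 and Tgm5 were lower still, and Tgm6 and Tgm7 had no counts in any TEC library. Tgm2 held 68.1% of the summed level of the 10 genes with vehicle and 65.0% with glutamine, and the first 3 places were in the same order in both groups.

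In PMN the family looked different, because F13a1 was abundant there. With vehicle, Tgm2 had 104 ± 40.3 and F13a1 98.1 ± 30.0 CPM per kb, and their ranges overlapped. With glutamine, Tgm2 had 191 ± 58.8 and F13a1 63.0 ± 20.6 CPM per kb, and their ranges did not overlap. The share of Tgm2 in the summed level of the family was 48.0% with vehicle and 73.9% with glutamine. Tgm1 had 12.7 ± 14.5 and 3.63 ± 3.54 CPM per kb and was at 0 in 1 library of each group. Tgm5, Tgm6, Tgm7 and Epb42 had no counts in any PMN library.

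Of the 10 genes, 6 were tested in TECs and 4 in PMN after the filter on low counts, and none passed an adjusted p of 0.05 in either cell type, where 0% of all tested genes passed. None of them had an unadjusted p below 0.05 in edgeR's test, and DESeq2 called none. The log2 fold change of F13a1 was 1.47 in TECs (standard error 0.90, adjusted p = 0.514 in edgeR's test), from a level of 0.509 to 5.02 CPM over the libraries. In PMN it was -0.64 (standard error 0.37, adjusted p = 1 in edgeR's test), with 845, 444 and 694 CPM in vehicle replicates 1, 2 and 3 and 405, 296 and 572 CPM in glutamine replicates 1, 2 and 3. The groups overlapped, and the direction was opposite to that of Tgm2 in both cell types. The log2 fold change of Tgm1 was -0.19 in TECs (standard error 0.25, adjusted p = 0.774 in edgeR's test).

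**Figure D4:**
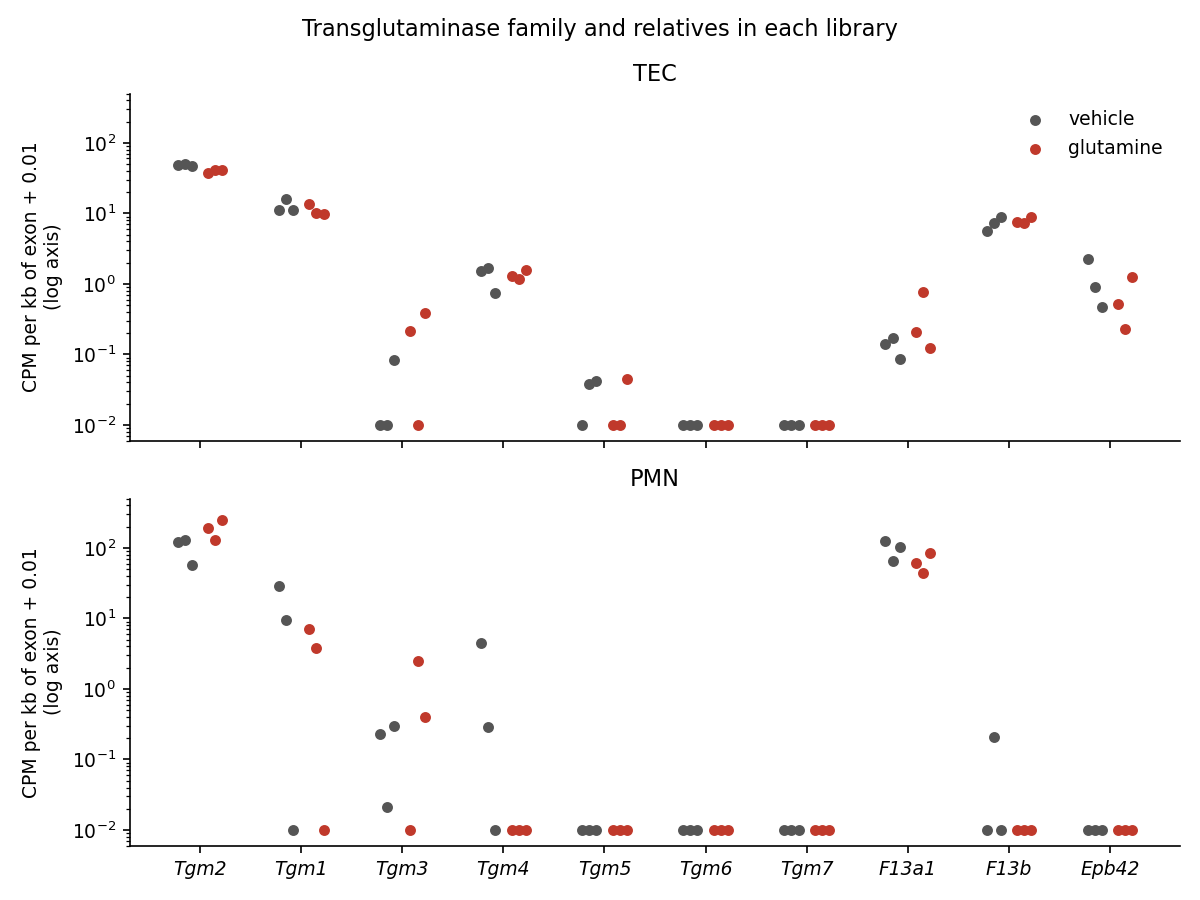
Levels of the transglutaminase genes and their relatives in each library, in CPM per kilobase of exon plus 0.01 on a log axis, with vehicle in grey and glutamine in red; points at 0.01 are libraries without counts. Tgm2 stands highest in all TEC libraries, and in PMN F13a1 lies in the same range with vehicle.

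Genes of TG2 biology were described from lists by role, of which 101 different genes were listed, the family included. In TECs 85 of them were tested. None passed an adjusted p of 0.05 in edgeR's test. At an unadjusted p below 0.05, 6 were higher and 7 lower with glutamine, while 7.23% of all tested genes were higher and 5.52% lower. In PMN 69 of them were tested and none passed, with 2 higher and 2 lower at an unadjusted p below 0.05 against 2.06% and 1.42% of all tested genes. The 2 lower genes were Mfge8 and Adgrg1. Mfge8 had no counts with glutamine and passed the filter on low counts only through vehicle, so nothing is drawn from its place in this count. DESeq2's Wald test called 4 of the 85 list genes tested in TECs (Txn1, Map3k5, Bad and Havcr1) against 1.26% of the genes tested by edgeR there. The lists were chosen with earlier results of these data known, and the study had already named Bad and Trx1 from its TEC RNA. No conclusion is therefore drawn from the number of calls. In PMN DESeq2 called 1 of the list genes tested by edgeR, Adgrg1, against 2.26% of those genes, and also Gas6, which had not passed edgeR's filter on low counts. DESeq2's calls in PMN are uncertain, since on simulated PMN data most of them were unchanged genes. The genes named are, for each list, the 3 tested members with the smallest p.

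Partners of TG2 in the matrix and on the cell surface numbered 16, all tested in TECs. Of these, 9 had a higher and 7 a lower fitted value with glutamine, where 50.6% of all tested genes were higher and 49.4% lower, and the median log2 fold change was 0.10 against 0.01 for all genes. Fn1 encodes fibronectin, the main matrix ligand of TG2. It had 23.3, 28.5 and 21.9 CPM in vehicle replicates 3, 4 and 5 and 32.4, 42.2 and 39.3 CPM in glutamine replicates 1, 2 and 3. Its groups did not overlap, higher with glutamine, as for 9% of all tested TEC genes, and the fitted log2 fold change came to 0.63 ± 0.23 (standard error; adjusted p = 0.309 in edgeR's test). Itgb1, the integrin beta-1 chain that joins TG2 at the cell surface, lay on the other side, with 243 to 270.0 CPM with vehicle and 197 to 210.0 CPM with glutamine (log2 fold change -0.33, standard error 0.18). Lrp6, a Wnt coreceptor that TG2 can bind, had overlapping groups and a log2 fold change of 0.56 (standard error 0.24).

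Among 15 tested intracellular partners, regulators and substrates, 5 were higher and 10 lower with glutamine in TECs (median log2 fold change -0.14). Txn1, thioredoxin, is known to reduce a disulfide that holds TG2 inactive. It had 436, 418 and 321 CPM in vehicle replicates 3, 4 and 5 and 248, 199 and 241 CPM in glutamine replicates 1, 2 and 3. All glutamine libraries lay below all vehicle libraries, with a log2 fold change at -0.77 ± 0.20 (standard error; adjusted p = 0.217 in edgeR's test and 0.0390 in DESeq2's). The small GTPase gene Rhoa, whose protein TG2 can modify, ranged from 128 to 167 CPM with vehicle and from 101 to 119 CPM with glutamine (log2 fold change -0.44, standard error 0.20). For Bax, a pore-forming apoptosis gene, the groups overlapped, and vehicle replicate 5 lay with the glutamine libraries at 4.38 CPM.

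HSP70, ASK1 and JNK signaling, which the study followed, was listed with 10 genes. The study reported Bad as lower with glutamine from the TEC RNA of this same series, so the counts of this list are not independent evidence. In TECs 5 were higher and 5 lower with glutamine (median log2 fold change 0.02). Map3k5, which encodes ASK1, had 46.5, 52.6 and 66.5 CPM in vehicle replicates 3, 4 and 5 and 139, 122 and 126 CPM in glutamine replicates 1, 2 and 3. The groups lay far apart, with a log2 fold change at 1.22 ± 0.21 (standard error; adjusted p = 0.128 in edgeR's test and 1.98e-04 in DESeq2's). Bad, a proapoptotic BCL2 relative, ranged from 21 to 57.4 CPM with vehicle and from 14.5 to 18.5 CPM with glutamine (log2 fold change -1.3, standard error 0.35). For Mapk9, the gene of JNK2, the log2 fold change was -0.67 (standard error 0.34), and its groups did not overlap. The HSP70 genes lie outside the naming rule and were chosen after their values were seen. The stress-induced Hspa1a and Hspa1b are near-identical copies whose reads may be split between them, and they had log2 fold changes of 0.04 and 0.56 (standard errors 0.55 and 0.45) with overlapping groups. Hspa8, the constitutive form, averaged 1097 ± 165 CPM in the vehicle group and 1087 ± 56.1 CPM in the glutamine group (SD, n = 3), and its log2 fold change was -0.01, with a 95% interval of -0.43 to 0.41.

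Known inducers of Tgm2 transcription and their receptors showed 7 higher and 8 lower among 15 tested genes in TECs. Egf, a growth factor made by the distal tubule, ranged from 59.2 to 110.0 CPM with vehicle and from 97.7 to 223 CPM with glutamine (log2 fold change 1.02, standard error 0.32). Il1b and the TGF-beta receptor gene Tgfbr1 had log2 fold changes of 1.35 and 0.34, and their groups overlapped. Genes that make, break down or answer to retinoic acid were low, with a summed level of 109 to 169 CPM with vehicle and 102 to 132 CPM with glutamine. Of 8 tested, 2 were higher and 6 lower (median -0.50 on the log2 scale). Aldh1a3, which makes retinoic acid, ranged from 1.28 to 3.57 CPM with vehicle and from 3.62 to 8.84 CPM with glutamine, and Aldh1a2, which does the same, had 2.78 to 7.89 and 0.841 to 2.63 CPM. The retinoic acid-degrading enzyme gene Cyp26b1 had overlapping groups and a log2 fold change of -2.30 (standard error 0.95).

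Polyamines are amine substrates of TG2. Of 8 tested genes of their enzymes, 2 were higher and 6 lower with glutamine in TECs. Azin1, an activator of polyamine synthesis, ranged from 63.7 to 78.5 CPM with vehicle and from 48.0 to 54.4 CPM with glutamine (log2 fold change -0.49, standard error 0.20). Srm, spermidine synthase, and Odc1, the rate-limiting ornithine decarboxylase, had groups that did not overlap, with log2 fold changes of -0.33 and 0.23 in opposite directions. Among genes for the clearance of dying cells, in which TG2 also takes part, 2 were higher and 8 lower of 10 tested. Havcr1 (KIM-1), a phagocytic receptor and marker of the injured proximal tubule, had 793, 541 and 106 CPM in vehicle replicates 3, 4 and 5 and 94.1, 49.4 and 26.2 CPM in glutamine replicates 1, 2 and 3. Vehicle replicate 5 lay close to the glutamine libraries, and the log2 fold change reached -3.08 ± 0.65 (standard error; adjusted p = 0.178 in edgeR's test and 0.0475 in DESeq2's). The receptor tyrosine kinase gene Mertk ranged from 12.3 to 16.6 CPM with vehicle and from 25.7 to 38.0 CPM with glutamine, and the scavenger receptor gene Cd36 had overlapping groups.

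**Figure D5:**
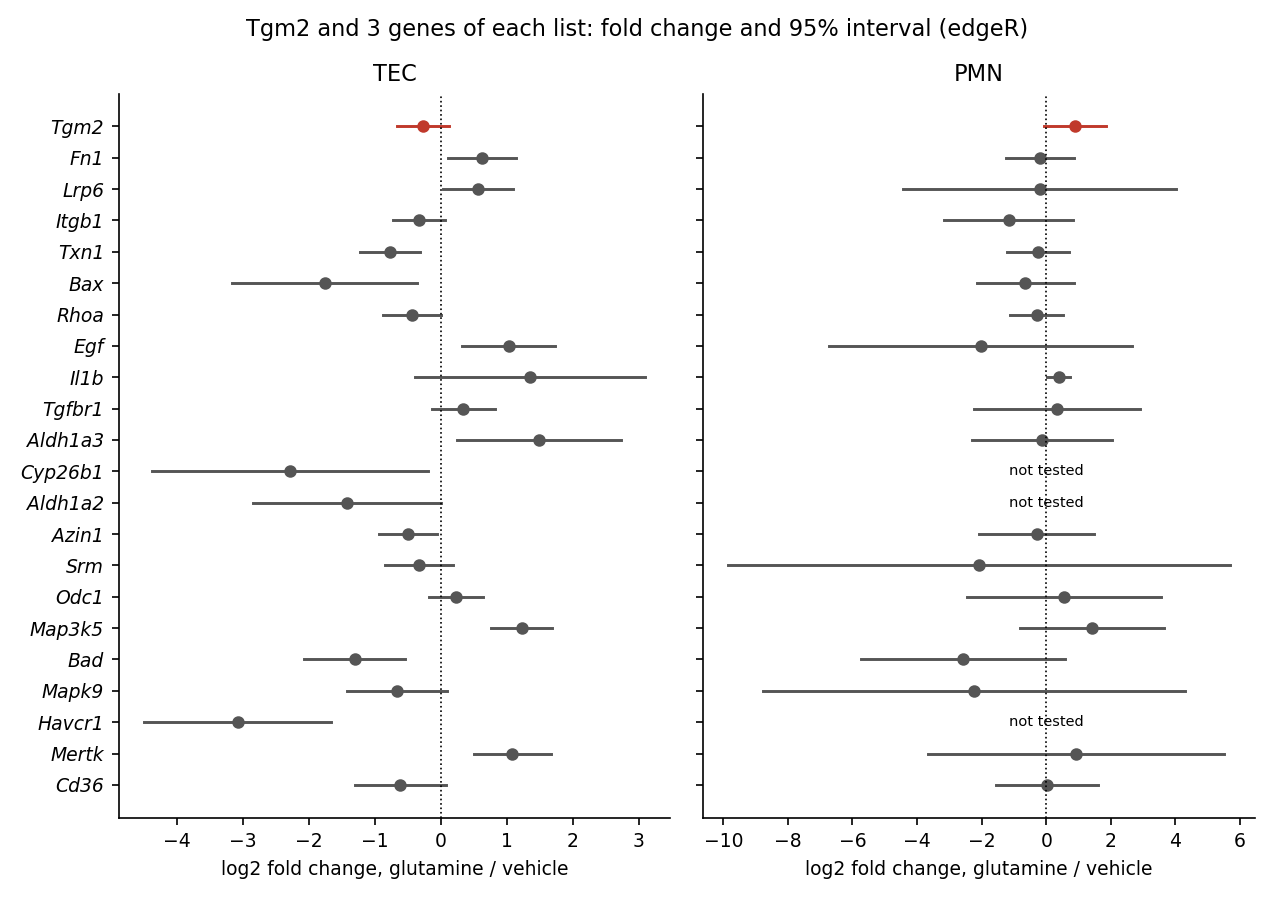
Log2 fold change, glutamine over vehicle, with its 95% interval from edgeR for Tgm2 (red) and for the 3 tested genes with the smallest p in TECs from each list of TG2 biology; the x axes differ between the panels. In TECs Tgm2 at -0.27 is close to 0 beside Map3k5 at 1.22 and Havcr1 at -3.08, and in PMN most intervals are wide.

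In PMN the same lists gave wider values. NF-kB is held back by the product of Nfkbia, a substrate of TG2. Nfkbia had 4020, 3160 and 3260 CPM in vehicle replicates 1, 2 and 3 and 5930, 4040 and 5190 CPM in glutamine replicates 1, 2 and 3. Its groups did not overlap (log2 fold change 0.54, standard error 0.19, adjusted p = 1 in edgeR's test), a pattern that 5.86% of all tested PMN genes showed upward. Il1b, the interleukin-1 beta gene among the inducers, ranged from 5850 to 8000 CPM with vehicle and from 8970 to 9840 CPM with glutamine (log2 fold change 0.38, standard error 0.15, adjusted p = 1 in edgeR's test). The summed level of the 17 inducers was 7365 to 9618 CPM with vehicle and 10754 to 11862 CPM with glutamine, and most of it was Il1b. Of the 14 tested inducers, 9 were higher and 5 lower, where 50% of all tested PMN genes lay on either side.

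Of the 14 tested matrix and surface partners in PMN, 1 was higher and 13 lower with glutamine. The 13 include Mfge8, whose direction the filter fixed. Mfge8, a bridging protein for dying cells, had no counts in the glutamine libraries and 9.58, 316 and 16.3 CPM in vehicle replicates 1, 2 and 3. It passed the filter on low counts only through the vehicle libraries. That its groups did not overlap was thus fixed by the filter, and nothing is drawn from it. Adgrg1, an adhesion receptor that binds TG2, had 48.5, 420.0 and 0.143 CPM in the same libraries, and at most 0.80 CPM with glutamine. Both were highest in vehicle replicate 2, which also had an endothelial marker sum of 2912 CPM and a podocyte marker sum of 1703 CPM, while the other PMN libraries reached 119.5 and 8.77 CPM; the part of these cells in the result was not tested. Ltbp1, a TGF-beta binding protein, was also highest in vehicle replicate 2, at 75.1 CPM. Map3k5 and Hspa1a had log2 fold changes of 1.43 and 0.53 in PMN, and Bad had -2.59, with standard errors of 0.94, 0.40 and 1.33. Other named members, Becn1, Vim, Hif1a, Smad2, Dhrs3, Aldh1a3, Smox, Oaz1, Amd1, Itgav and Abca1, had overlapping groups in PMN.

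Marker genes of the cells that could carry Tgm2 were read beside it, and single markers named other than Prom1 and Ptprc were chosen after their values were seen. Library totals were 5397371 to 10223463 counts in TECs and 20226512 to 21879769 in PMN. The sort marker Prom1 had 64.6 to 76.5 CPM in the vehicle TECs and 75.0 to 83.5 CPM in the glutamine TECs. Ptprc, which encodes the excluded CD45, was low, with 0.102 to 1.52 CPM with vehicle and 1.81 to 2.74 CPM with glutamine. The groups of Ptprc did not overlap, as for 9% of all tested TEC genes upward. Proximal tubule markers, 12 genes, summed to 12071 to 14377 CPM with vehicle and 9305 to 17418 CPM with glutamine, and Kap alone gave 6690.0 to 10400.0 and 3900.0 to 11200.0 CPM of these sums. Of the 12, 10 were higher and 2 lower with glutamine (median log2 fold change 0.36), with 4 higher at an unadjusted p below 0.05, where 7.23% of all tested TEC genes were, and none past the adjusted threshold in edgeR's test. Of 6 thick ascending limb markers 5 were higher and 1 lower, 2 of them higher at an unadjusted p below 0.05. Their sums were 1153 to 2110.0 CPM with vehicle and 1392 to 2500.0 CPM with glutamine. DESeq2 called 1 of the 6, Slc12a1 (adjusted p = 0.0109 in its Wald test), against 1.26% of the genes tested by edgeR. Of 7 tested distal tubule and collecting duct markers 6 were higher and 1 lower, 3 of them higher at an unadjusted p below 0.05, with sums of 186 to 349 CPM and 224 to 479.5 CPM. Of 7 injured-tubule markers 2 were higher and 5 lower, 1 of them (Havcr1) lower at an unadjusted p below 0.05, where 5.52% of all tested TEC genes were, with sums of 4206 to 12415 CPM and 4672 to 7312 CPM. The part of these tubule markers in the Tgm2 values was not tested. Endothelium expresses Tgm2 at high level in many organs. Its 11 markers summed to 400.0 to 648.5 CPM with vehicle and 391.5 to 547.8 CPM with glutamine in the TEC libraries, and 2 were higher and 9 lower with glutamine (median log2 fold change -0.27). The groups overlapped for all 11, and the part of endothelial RNA in the level of Tgm2 was not tested. Macrophages also express Tgm2. Their 8 markers summed to 30.5 to 61.9 CPM with vehicle and 33.8 to 67.7 CPM with glutamine. Erythroid markers, 4 globin genes, summed to 6707 CPM in glutamine replicate 2 and 4396 CPM in vehicle replicate 5, against 802 to 1599 CPM in the other TEC libraries, and all 4 had a higher fitted value with glutamine, with overlapping groups. Neutrophil markers summed to 102 to 243 CPM with vehicle and 119 to 254 CPM with glutamine, podocyte markers to 77.8 to 134 and 112 to 137 CPM, and the fibroblast, pericyte and smooth muscle markers to 25.3 to 37.0 and 35.5 to 46.0 CPM. Monocyte, platelet, B cell and T and NK cell markers summed to at most 29.9 CPM in any TEC library, and no tested gene of these 7 lists had an unadjusted p below 0.05. In bulk samples, fewer cells of a type and less RNA per cell cannot be told apart.

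The PMN libraries carried 10 neutrophil markers at a sum of 30102 to 52220.0 CPM with vehicle and 22006 to 71553 CPM with glutamine, and the lowest sum was in glutamine replicate 3. Of 8 tested, 5 were higher and 3 lower with glutamine. Of these, 1 (Mmp9, a granule protease gene) was higher at an unadjusted p below 0.05, where 2.06% of all tested PMN genes were. Mmp9 had 525 to 574 CPM with vehicle and 741 to 1350.0 CPM with glutamine. The 8 macrophage markers summed to 2300.0 to 5445 CPM with vehicle and 2941 to 8969 CPM with glutamine, and the highest sum was in glutamine replicate 3, which also had the highest Tgm2. The next highest sum, 5445 CPM, was in vehicle replicate 3, which had the lowest Tgm2, and glutamine replicate 1 had a sum of 2941 CPM with the next highest Tgm2. Of these markers 7 were higher and 1 lower with glutamine (median log2 fold change 0.49). The 5 monocyte markers summed to 3404 to 5635 CPM with vehicle and 3968 to 5228 CPM with glutamine, and the 5 platelet markers to 532 to 1053 and 471.5 to 773 CPM. The 4 B cell markers summed to 0.501 to 2.64 CPM with vehicle and 20.8 to 33.5 CPM with glutamine. The sums of the groups did not overlap, and nearly all of the glutamine sum was Cd79b, a B cell receptor subunit gene. Cd79b had 18.5 to 31.4 CPM with glutamine and was at 0 with vehicle. It passed the filter on low counts only through the glutamine libraries, so nothing is drawn from its groups not overlapping. Cd79a was at 0 in the glutamine libraries. Proximal tubule markers summed to 375 to 538 CPM with vehicle and 269 to 451 CPM with glutamine, erythroid markers to 23.2 to 35.8 and 28.3 to 134 CPM, and T and NK cell markers to at most 17.9 CPM. The fibroblast, pericyte and smooth muscle markers summed to 196 CPM in vehicle replicate 2 and to at most 45.9 CPM in the other PMN libraries. F13a1 is known from monocytes, macrophages and platelets. Ptprc ranged from 316 to 569 CPM with vehicle and from 756 to 1150.0 CPM with glutamine. Its groups did not overlap, a pattern that 5.86% of all tested PMN genes showed upward. The log2 fold change of Ptprc was 0.91 (standard error 0.33, unadjusted p = 0.0281 in edgeR's test), and it did not pass after adjustment. Vehicle replicate 1 carried 22194 CPM of injured-tubule markers against at most 3254 CPM in the other PMN libraries, of which Spp1 (osteopontin) gave 19800.0 CPM. In that library Clu had 763 CPM and Sox9 19.6 CPM, against at most 37.0 and 0.282 CPM in the other PMN libraries, while Havcr1 and Krt20 were at 0. The thick ascending limb markers of vehicle replicate 1 summed to 1076 CPM against at most 43.5 CPM in the others. Umod gave 1030 CPM and Egf 50.1 CPM of this sum. Its distal tubule and collecting duct markers summed to 194.5 CPM against at most 16.6 CPM, and Slc12a3 alone gave 193 CPM. The other markers of these lists had at most 0.752 CPM in that library. The part of these markers in the Tgm2 values was not tested.

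The genes whose pattern was most like that of Tgm2 were found by Pearson's correlation of log2 CPM over the 6 libraries of a cell type. These libraries differ in depth and hold both treatments, so differences between the groups enter the correlation. In TECs 7568 genes with a mean of at least 10 CPM were compared, and 199 of them had a correlation above 0.9 and 82 below -0.9. The 5 highest were Nsf, a vesicle fusion ATPase (0.995), Srp54c, of the signal recognition particle (0.99), the ribosomal protein genes Rps18 (0.984) and Rps3a1 (0.98), and Snrpe, a spliceosome component (0.98). The 3 lowest were Crebrf (-0.982), Cyp2u1 (-0.977) and Arhgef28 (-0.977). In PMN 6720 genes were compared, with 40 above 0.9 and 29 below -0.9. The 5 highest there were the splicing regulator gene Tra2a (0.979), Icam1, an adhesion molecule gene (0.967), Rin3 (0.957), Gapvd1 (0.955) and Elmo2 (0.954). The 3 lowest were the translation initiation factor gene Eif4g3 (-0.996), Dcaf17 (-0.974) and the ATP-gated channel gene P2rx4 (-0.974).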

How the data were processed

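RNA was sequenced as single-end reads of 50 bases. For TECs and for PMN, the authors deposited 1 table of estimated counts by gene symbol, made with Salmon 1.0.0 after Trim Galore 0.6.4 on mm10 per the submitters' processing notes, and not normalized. The deposited PMN table is of another kind (text cells, unit other): a spreadsheet had put extra points into 3.2% of its cells and turned 0.39% into dates, which were decoded to estimated counts, so the test planned for counts was kept. Each PMN library has 2 columns, and the sources used here do not state what the 2 columns stand for. They correlated at 0.9986 to 0.9989 (0.7754 to 0.8345 between libraries) and were averaged to 1 replicate. For Tgm2 they differed by at most 0.576%.

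Estimated counts were rounded. Genes were tested within each cell type with the quasi-likelihood test of edgeR 4.0.16 in R 4.3.3, TMM factors, the default expression filter and Benjamini-Hochberg adjustment at 0.05, with no covariate. On data simulated from these libraries, fitted fold changes followed the true ones, but edgeR called a minority of the changed genes in TECs and none in PMN, and most of DESeq2's PMN calls were unchanged genes, so a lack of calls does not show a lack of change and DESeq2's PMN calls are uncertain. DESeq2 1.42.0, limma 3.58.1, other scalings and filters, leaving out each library and single PMN columns were alternatives. Positions, lengths and sequences came from GENCODE M21 (GRCm38). Correlations used log2 CPM. Counting error covers only part of the error, since replicates differ further. Tgm2, the 8 gene lists and the 15 marker lists were chosen with earlier results of these data known. Named genes are Tgm2, its family, the list members past the threshold or else the 3 with the smallest p, Prom1, Ptprc, and the 5 most and 3 least correlated genes; HSP70 genes and single cell type markers outside this rule were chosen after their values were seen.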

Additional observations from a re-analysis of the deposited data

Results flagged for a closer look

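The difference in mean log2 CPM of Tgm2 between glutamine and vehicle was 1.199 higher in PMN than in TECs (exact two-sided permutation test with the labels permuted within each cell type, p = 0.01, adjusted over 3 comparisons 0.03). The null of this test is no effect in either cell type, not equal effects, and it takes the TEC and PMN libraries as independent, which the labels do not state. Without PMN vehicle replicate 3 the difference was 0.82 with an unadjusted p = 0.05 in the same exact permutation test. The 3 glutamine TEC libraries lay below all vehicle TEC libraries, and 2 of 3 glutamine PMN libraries lay above all vehicle PMN libraries. Neither comparison passed the test within its own cell type.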

How the results depend on the processing

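No paired analysis was possible because only number 3 occurs in both groups of TECs and the labels number no PMN library. The direction of Tgm2 held under all 15 alternatives in TECs and all 17 in PMN, and its adjusted p-value passed under none. In TECs the 15 include the addition of Gm20412, which changed no value there. The difference between the cell types in mean log2 CPM was 0.82 without PMN vehicle replicate 3 (p = 0.05 in the exact permutation test). Leaving out 1 library gave 0.82 to 1.45 for that difference, -0.30 to -0.23 for the log2 fold change in TECs and 0.58 to 1.08 in PMN. The level of Tgm2 in TECs was 235.9 CPM with vehicle and 173 CPM with glutamine on library totals, and 297 and 242 CPM without predicted, Rik and sensory receptor genes in the totals. The number of genes with an adjusted p below 0.05 in TECs was 0 with edgeR (1879 at an unadjusted p below 0.05), 425 without an expression filter, 190 with DESeq2, 36 without glutamine replicate 2, 4 without vehicle replicate 5, and from 0 to 36 over all fits that left out 1 library. In PMN it was 0 with edgeR (353 at an unadjusted p below 0.05) and 329 with DESeq2. DESeq2 called 4 list genes in TECs and 2 in PMN, 1 of the latter not tested by edgeR. The cause of these differences was not tested. With 3 libraries in a group, the 95% interval in PMN spans 0.949-fold to 3.58-fold.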
